A study of Mus musculus with 20 samples.

Results

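Xiap encodes the X-linked inhibitor of apoptosis protein, and the 8 genes described here are Xiap, its relatives Birc2, Birc3 and Birc6, the antagonists Diablo and Htra2, and the cell death partners Casp9 and Apaf1. They were found by their symbols in a table of 23020 genes from mouse small intestinal crypts, and all 8 were present. All 8 were also among the 9521 genes whose mean over the libraries reached log2 of 10, the minimum for a test. Crypts are the pockets of the intestinal lining that hold stem, cycling and Paneth cells.

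The study had 20 libraries of 3′ ends of polyadenylated transcripts, counted with unique molecular identifiers, from C57BL/6 mice. Wild-type mice and Xiap-deficient (Xiap-/-) mice were kept either with their own genotype, called housed apart here, or together in mixed groups for 4 weeks, called co-housed. Mice housed apart gave 6 wild-type and 4 Xiap-/- libraries, and co-housed mice gave 5 of each genotype. Since mice housed apart were kept with their own genotype, effects of genotype and of separate housing cannot be told apart in them. The genotype difference averaged over both housings includes these mice. The labels name neither the part of Xiap that the allele removes, nor the age or sex of the mice, nor their cages. They do not state that each library came from a separate mouse, so p-values measure the spread between these libraries. Values are the authors' normalized levels on a log2 scale, and a difference between levels is read here as a log2 ratio. The transformation is not given, and whether it shrinks differences was not tested. In bulk RNA from crypts, fewer cells of a type and less RNA per cell cannot be told apart.

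Apoptosis, a form of programmed cell death, removes damaged or surplus epithelial cells. In its mitochondrial route, cytochrome c released from mitochondria binds the scaffold protein APAF1, which then assembles into the apoptosome and activates the initiator caspase-9. Caspase-9 in turn activates the effector caspases. XIAP binds and blocks caspase-9 and the effector caspases, and SMAC (encoded by Diablo) and HTRA2, both released from mitochondria, can bind XIAP and relieve that block. XIAP is also a ubiquitin ligase that takes part in innate immune signalling downstream of the NOD2 receptor, and its loss is known in inflammatory bowel disease.

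Apaf1 was the only one of the 8 genes that passed the test over all genes in any comparison, and Xiap is the gene targeted in the mice, so their upstream sequences are shown for reference. Each run is the 250 bases before the start site given by RefSeq on GRCm38.p6, 5′ to 3′ on the gene's own strand, with the GC box GGGCGG, or CCGCCC where it lies on the other strand, in capitals. Apaf1 lies at chr10:90989311-91082770 on the minus strand and the run shown at chr10:91082744-91082993. Xiap lies at chrX:42059679-42109656 on the plus strand and the run shown, before the first listed of 3 start sites, at chrX:42068148-42068397.
Apaf1: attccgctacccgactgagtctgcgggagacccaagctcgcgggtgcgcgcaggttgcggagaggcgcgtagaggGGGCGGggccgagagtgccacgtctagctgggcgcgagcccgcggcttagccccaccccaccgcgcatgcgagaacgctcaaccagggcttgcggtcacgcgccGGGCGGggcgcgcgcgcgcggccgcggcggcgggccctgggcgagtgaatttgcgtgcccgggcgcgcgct
Xiap: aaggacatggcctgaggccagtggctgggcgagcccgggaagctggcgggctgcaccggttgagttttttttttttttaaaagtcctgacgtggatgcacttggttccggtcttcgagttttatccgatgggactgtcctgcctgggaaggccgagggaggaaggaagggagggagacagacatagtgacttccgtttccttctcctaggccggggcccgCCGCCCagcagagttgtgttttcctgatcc
The Apaf1 run held 2 GC boxes, 42 CpG dinucleotides and 75.6% G or C. The Xiap run held 1 GC box, 13 CpG dinucleotides and 57.6% G or C, and it lies inside the annotated span of Xiap. The runs before its other start sites, not shown, differed. The run at chrX:42067586-42067835 held 1 GC box, 1 CpG dinucleotide and 46.4% G or C. The run at chrX:42070992-42071241 held 0 GC boxes, 1 CpG dinucleotide and 39.2% G or C. At least 1 GC box was present in 32.7% of 32851 RefSeq promoter runs of the same length, so the motif is common. Neither run shown held any of the E2F motifs TTTCCCGC, TTTCGCGC, TTTGCCGC or TTTGGCGC on either strand, which 1.86% of the RefSeq runs held. These matches are a description of the letters and not of binding.

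The first gene examined was Xiap itself, the targeted gene. Xiap transcript was still measured in every Xiap-/- library. Tags come from 3′ ends, which may lie outside the deleted part, so these levels do not check the genotype. In wild-type mice housed apart the lowest, median and highest Xiap levels were 6.56, 6.79 and 7.08, with a mean of 6.81 ± 0.17 (SD, n = 6). In the Xiap-/- mice housed apart they were 6.48, 6.37, 6.43 and 6.25, with a mean of 6.38 ± 0.10 (SD, n = 4). All 4 Xiap-/- libraries therefore lay below all 6 wild-type libraries under this housing, an arrangement that 1.05% of all tested genes showed.

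After co-housing the Xiap levels of both genotypes overlapped. The wild-type libraries had 6.76, 6.84, 6.80, 6.60 and 6.36, with a mean of 6.67 ± 0.20 (SD, n = 5), and the Xiap-/- libraries had 6.91, 6.68, 6.66, 6.56 and 6.29, with a mean of 6.62 ± 0.22 (SD, n = 5). The highest Xiap level among the 10 co-housed libraries was in a Xiap-/- mouse. From highest to lowest the group means ran wild-type housed apart, wild-type co-housed, Xiap-/- co-housed, Xiap-/- housed apart, and the ranges of each neighbouring pair in that order overlapped.

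The Xiap difference between genotypes was -0.43 ± 0.11 (SE) in mice housed apart, with a 95% interval from -0.65 to -0.21. An exact two-sided permutation test of that difference gave p = 0.00476, the smallest that its 210 splits can give, while limma, a linear model fitted over all 9521 tested genes, gave an adjusted p of 0.0599. In co-housed mice the difference was -0.05 ± 0.11, with an interval from -0.27 to 0.16 and an exact permutation p of 0.683 over 252 splits. The difference of these differences was 0.37 ± 0.15, with an interval from 0.07 to 0.68 and an adjusted p of 0.614 in limma, so a change of the Xiap difference with housing did not pass. Within Xiap-/- mice, co-housed minus housed apart was 0.24 ± 0.11 (adjusted p = 0.419 in limma), and within wild-type mice it was -0.14 ± 0.10 (adjusted p = 0.654 in limma).

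The libraries also differed in a stand-in for depth, the share of 1854 rarely detected genes that lay above their own plateau. In mice housed apart that share was 17.1% ± 10.5 (SD, n = 4) for Xiap-/- and 7.71% ± 3.69 (SD, n = 6) for wild-type libraries. These Xiap-/- libraries were at 10.1%, 32.1%, 9.55% and 16.6%, and the highest wild-type one at 14.9%. In co-housed mice the share was 8.74% ± 1.47 (SD, n = 5) for wild-type and 8.77% ± 2.77 (SD, n = 5) for Xiap-/- libraries. With that share as a covariate, the Xiap difference in mice housed apart was -0.33 (adjusted p = 0.796 in limma). Over all 9521 tested genes, 3 passed in that comparison with the covariate, beside 43 without it. The Pearson correlation of Xiap with the share over the 20 libraries was -0.559, given as a description.

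**Figure D1:**
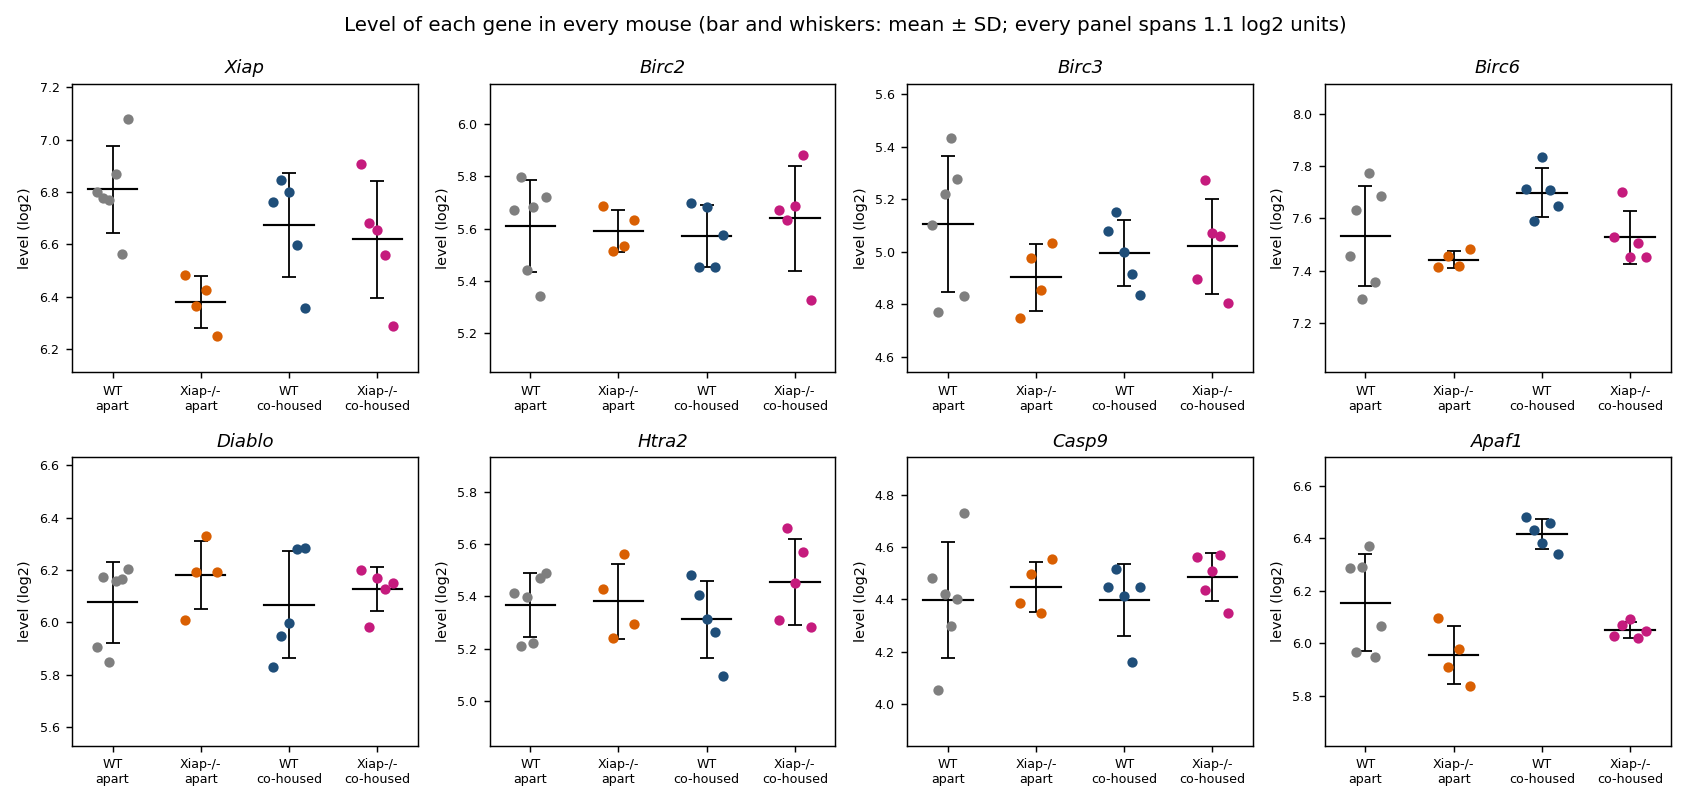
Level of each of the 8 genes in every library, on the authors' log2 scale, with wild-type (WT) and Xiap-/- mice housed apart or co-housed along the x axis. Points are libraries, bars and whiskers are the mean ± SD, and the 5 wild-type co-housed Apaf1 points (6.34 to 6.48) lie above the 5 Xiap-/- co-housed ones (6.02 to 6.09).

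The other inhibitors of apoptosis showed no genotype difference that passed. Birc2 and Birc3 encode cIAP1 and cIAP2, ubiquitin ligases of tumour necrosis factor receptor signalling, and lie 11634 bases apart on chromosome 9, both on the minus strand (Birc2 at chr9:7818227-7837064, Birc3 at chr9:7848699-7873186). Birc2 had group means of 5.61 ± 0.18 in wild-type housed apart, 5.59 ± 0.08 in Xiap-/- housed apart, 5.57 ± 0.12 in wild-type co-housed and 5.64 ± 0.20 in Xiap-/- co-housed mice (SD, n = 6, 4, 5 and 5). Its genotype difference was -0.02 ± 0.10 housed apart (95% interval -0.22 to 0.19) and 0.07 ± 0.10 co-housed (-0.13 to 0.27). Differences inside these intervals remain possible.

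Birc3 means were 5.11 ± 0.26, 4.90 ± 0.13, 5.00 ± 0.13 and 5.02 ± 0.18 (SD) in the same order of groups. The 4 Xiap-/- libraries housed apart had Birc3 levels of 4.75, 4.98, 4.85 and 5.03, inside the wild-type range of 4.77 to 5.44 apart from the lowest. The Birc3 difference housed apart was -0.20 ± 0.11, with an interval from -0.43 to 0.02 and an adjusted p of 0.380 in limma. Co-housed it was 0.03 ± 0.11, with an interval from -0.20 to 0.22. Housed apart, the differences of the 2 neighbouring genes were thus -0.02 for Birc2 and -0.20 for Birc3, and neither passed.

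Birc6, at chr17:74528295-74703356 on the plus strand, encodes a very large protein that combines an inhibitor domain with ubiquitin-conjugating activity. Its means were 7.53 ± 0.19 in wild-type and 7.44 ± 0.03 in Xiap-/- mice housed apart, and 7.70 ± 0.09 in wild-type and 7.53 ± 0.10 in Xiap-/- co-housed mice (SD). The co-housed wild-type libraries had 7.71, 7.59, 7.84, 7.71 and 7.65, and the co-housed Xiap-/- libraries 7.53, 7.70, 7.45, 7.51 and 7.45. All but 1 of these Xiap-/- values lay below the lowest wild-type value. Housed apart, the Xiap-/- values ran from 7.41 to 7.48, all inside the wild-type range of 7.29 to 7.77. Over both housings, 8 of 9 Xiap-/- libraries were below the wild-type mean of their housing, with an average difference of -0.13 ± 0.06 (adjusted p = 0.246 in limma). Part of Birc6 overlaps the annotated antisense gene Gm26749, and whether the authors' counting used strand is not given in the sources used here.

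Among the antagonists, Diablo encodes the mitochondrial protein SMAC and lies at chr5:123509765-123524176 on the minus strand. Its means were 6.08 ± 0.16 in wild-type and 6.18 ± 0.13 in Xiap-/- mice housed apart, and 6.07 ± 0.20 in wild-type and 6.13 ± 0.08 in Xiap-/- co-housed mice (SD). Diablo was above the wild-type mean of its housing in 7 of 9 Xiap-/- libraries, with an average difference of 0.08 ± 0.07 (interval -0.06 to 0.22, adjusted p = 0.521 in limma). The annotation places the coding gene Gm49027 over most of Diablo on the same strand, and the table has no row for Gm49027, so reads of both could fall under Diablo.

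Htra2, a mitochondrial serine protease, lies at chr6:83051266-83055273 on the minus strand. Its means were 5.37 ± 0.12 and 5.38 ± 0.14 in the wild-type and Xiap-/- groups housed apart, and 5.31 ± 0.15 and 5.46 ± 0.16 in the co-housed groups (SD). In co-housed mice the Htra2 difference was 0.14 ± 0.09, with an interval from -0.05 to 0.33 and an adjusted p of 0.558 in limma. The groups overlapped, with wild-type values from 5.10 to 5.48 and Xiap-/- values from 5.28 to 5.66. Htra2 shares 1297 bases with Loxl3 and 753 with Aup1, both on the opposite strand, so its level is uncertain if strand was not used.

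Casp9, at chr4:141793612-141815976 on the plus strand, encodes the initiator caspase that the apoptosome activates. Its means were 4.40 ± 0.22, 4.45 ± 0.10, 4.40 ± 0.14 and 4.48 ± 0.09 (SD) in wild-type housed apart, Xiap-/- housed apart, wild-type co-housed and Xiap-/- co-housed mice. The genotype difference averaged over both housings was 0.07 ± 0.07, with an interval from -0.07 to 0.21 and an adjusted p of 0.601 in limma. Casp9 shares 1015 bases with Cela2a and as many with Ctrc, both on the opposite strand and without a row in the table, so its level carries the same uncertainty. The overlaps named for Birc6, Diablo, Htra2 and Casp9 are of whole annotated spans. Whether 3′ tags fall in them was not tested. Casp9 and Apaf1 act in the same complex, and of their average differences only that of Apaf1 passed, while the Casp9 interval held both signs.

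Apaf1, the scaffold of the apoptosome, fell in Xiap-/- mice. In wild-type mice housed apart its lowest, median and highest levels were 5.95, 6.17 and 6.37, with a mean of 6.15 ± 0.18 (SD, n = 6), and the Xiap-/- mice housed apart had 6.10, 5.91, 5.98 and 5.84, with a mean of 5.96 ± 0.11 (SD, n = 4). These groups overlapped, since the highest Xiap-/- level, 6.10, was above the lowest wild-type level, 5.95. The co-housed wild-type libraries had 6.48, 6.43, 6.38, 6.46 and 6.34, with a mean of 6.42 ± 0.06 (SD, n = 5), and the co-housed Xiap-/- libraries had 6.03, 6.07, 6.09, 6.02 and 6.05, with a mean of 6.05 ± 0.03 (SD, n = 5). All 5 co-housed Xiap-/- libraries lay below all 5 co-housed wild-type ones, an arrangement that 1.75% of all tested genes showed. From highest to lowest the Apaf1 group means ran wild-type co-housed, wild-type housed apart, Xiap-/- co-housed, Xiap-/- housed apart, and the ranges of each neighbouring pair overlapped.

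Averaged over both housings, Apaf1 fell by 0.28 ± 0.06 (SE) on the log2 scale (95% interval -0.41 to -0.16, adjusted p = 0.0195 in limma). Read as a log2 ratio, Apaf1 was at 0.822 of the wild-type level. It was below the wild-type mean of its housing in 9 of 9 Xiap-/- libraries, and its p ranked 32 of 9521. Of the 8 genes 1 passed, in the lower direction, beside 2.06% of all tested genes in either direction and 0.945% in the lower one. Within single housings the Apaf1 difference was -0.20 ± 0.09 housed apart (adjusted p = 0.268 in limma) and -0.37 ± 0.09 co-housed (adjusted p = 0.0970 in limma), and neither passed alone. The difference of those differences was -0.17 ± 0.12 (interval -0.42 to 0.08, adjusted p = 0.824 in limma).

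Without the library of Xiap-/- housed apart replicate 4, the lowest of all 20 in Apaf1, the average Apaf1 difference was -0.26 (adjusted p = 0.0625 in limma), and with the depth stand-in as covariate it was -0.26 (adjusted p = 0.163 in limma). Without the 2 libraries highest and lowest in that stand-in it was -0.28 (adjusted p = 0.0401 in limma). Summed markers of stem and cycling cells overlapped between co-housed groups, at 9.50 to 9.68 in wild-type and 9.28 to 9.69 in Xiap-/- mice. Their medians were 9.61 and 9.41, the latter below the lowest wild-type value. Housed apart the medians were 9.30 in wild-type and 9.48 in Xiap-/- mice, in the other direction. None of those 6 markers passed, and their median difference between co-housed genotypes was 0.10. Their part in the Apaf1 difference was not tested.

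**Figure D2:**
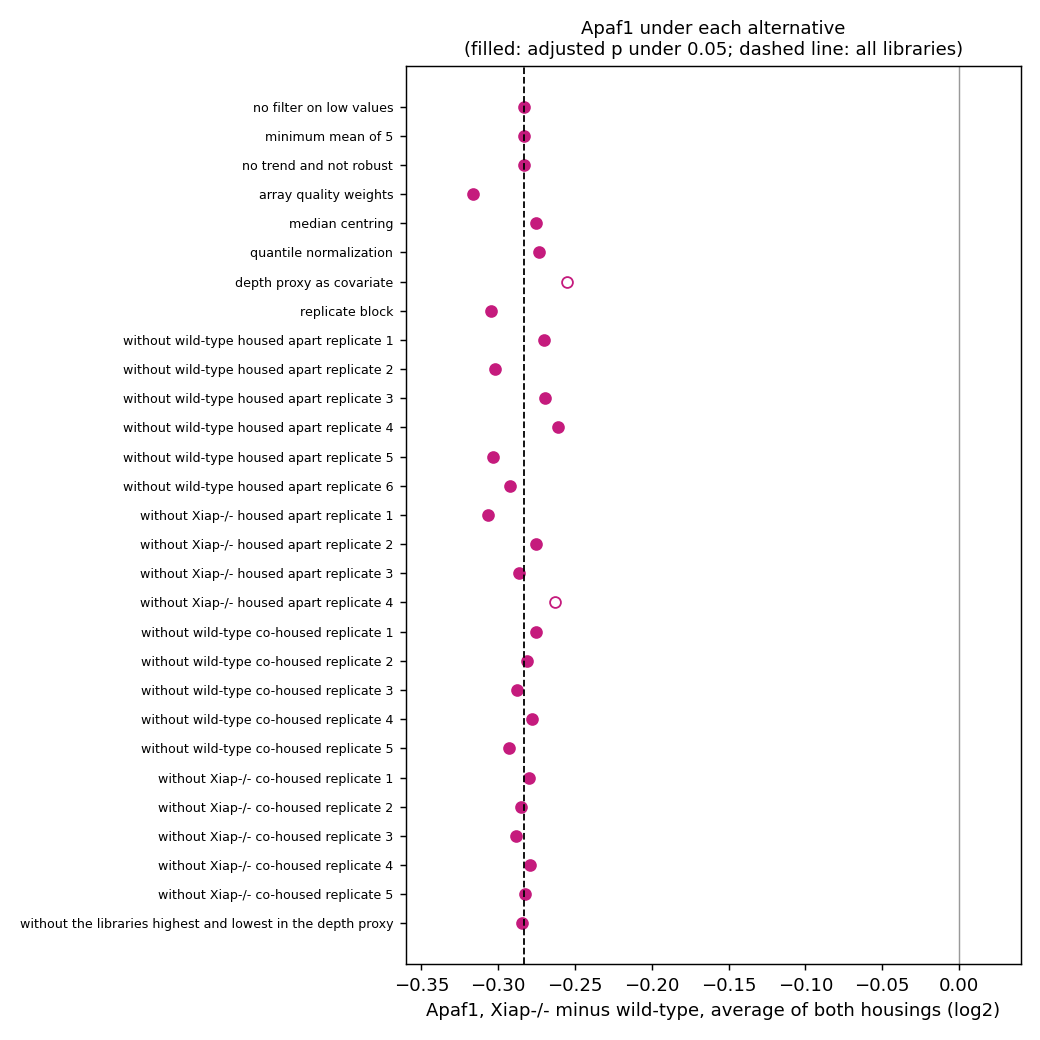
Apaf1 difference, Xiap-/- minus wild-type averaged over both housings (log2, x axis), under each of 29 alternative settings (y axis), with filled points for an adjusted p under 0.05 and a dashed line at the value from all libraries. All 29 points lie between -0.32 and -0.26, and 27 of them are filled.

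Housing alone moved none of the 8 genes past the test. In wild-type mice Apaf1 was 0.26 ± 0.08 higher after co-housing (interval 0.10 to 0.43), with overlapping values and an adjusted p of 0.322 in limma, and Birc6 was 0.17 ± 0.09 higher (adjusted p = 0.516 in limma). In limma 0 of the 9521 tested genes passed there (0%), and 969 had an unadjusted p under 0.05. The count was 5 when all 23020 genes were tested, 5 with array quality weights and 66 without wild-type housed apart replicate 4. In Xiap-/- mice the differences of the 8 genes ran from -0.05 for Diablo to 0.24 for Xiap, and 0.147% of all genes passed. The share of all genes that passed was 0.452% between genotypes kept apart, 0.0315% between co-housed genotypes, 0.179% between housings on average and 0.0105% in the difference of differences, and none of the 8 genes was among them. The genotype and housing comparisons share libraries, so the high wild-type co-housed Apaf1 level enters both.

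**Figure D3:**
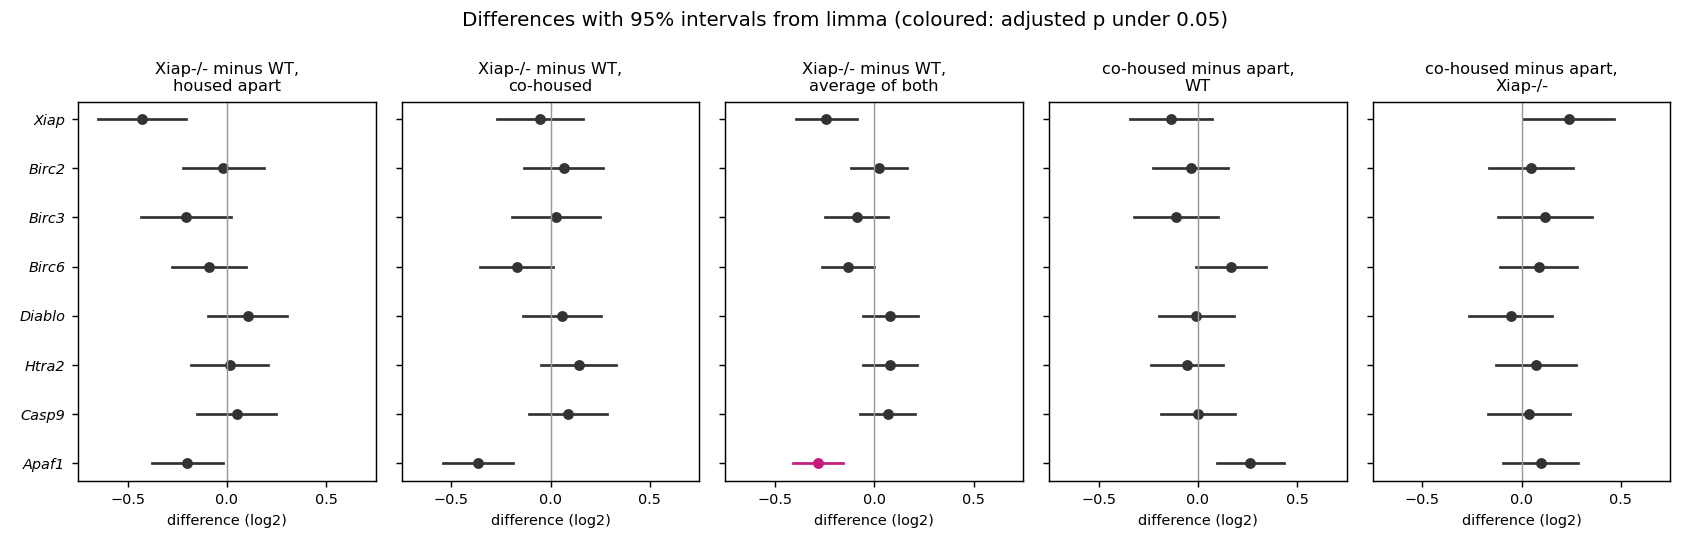
Differences of the 8 genes (log2, x axis) with 95% intervals from limma, in 1 panel for each of 5 comparisons: Xiap-/- minus wild-type housed apart, co-housed and averaged, and co-housed minus housed apart in each genotype. The only coloured point, for an adjusted p under 0.05, is Apaf1 in the averaged genotype panel, at -0.28.

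The spread between libraries of a group was below the median of all tested genes for 3 of the 8 genes. Their residual SD ran from 0.12 for Apaf1 to 0.19 for Birc3, beside a median of 0.15 over all tested genes. The median average genotype difference of the 8 genes was -0.03, beside 0.00 over all tested genes, with 4 above and 4 below 0.

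Other genes of the route were examined in 7 lists of 68 symbols, of which 63 were in the table and 51 reached the minimum for a test. A gene of the antagonists and XIAP-binding list was entered as both Septin4 and Sept4 and was found under neither symbol. The table also holds 24 names that are dates, and whether any of them is this gene was not checked. In the averaged genotype comparison 1 of 51 was higher and 1 lower, together 3.92% beside 2.06% of all tested genes (1.11% higher, 0.945% lower). No list gene passed in any of the other 6 comparisons, in which 2 to 12 of the 51 had an unadjusted p under 0.05. Housed apart these were 12 of the 51 between genotypes, beside 15.8% of all tested genes, and co-housed they were 2, beside 12% of all. For housing they were 5 in wild-type mice (all genes 10.2%), 8 in Xiap-/- mice (11.3%) and 7 on average (14.4%), and for the difference of differences 2 (7.05%). The averaged genotype comparison had 12 such genes of the 51, beside 20.5% of all tested genes. The NOD2 pathway genes Nod2, Nod1 and Ripk2 were in the table but below the minimum, so they were not tested. Of the list of XIAP and cIAP ubiquitin signalling that holds them, 13 other genes were tested.

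Bok, a member of the BCL2 family that promotes cell death, was the gene that rose. Its levels had a lowest, median and highest value of 5.35, 5.63 and 6.21 in wild-type mice housed apart, and were 6.06, 6.25, 6.49 and 6.15 in Xiap-/- mice housed apart. The co-housed means were 5.56 ± 0.14 in wild-type and 5.75 ± 0.29 in Xiap-/- mice (SD, n = 5 each), with overlapping ranges. Bok rose by 0.38 ± 0.10 on average (adjusted p = 0.0477 in limma), above the wild-type mean of its housing in 7 of 9 Xiap-/- libraries. Over 29 alternatives the adjusted p ranged from 0.00315 to 0.253, and the call was lost in 17 of them, among these 14 of the 20 that left out 1 library.

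Among the other 8 tested promoters of cell death in the BCL2 family, Bak1, which helps to permeabilize mitochondria, had a difference of -0.24 ± 0.07 (adjusted p = 0.0641 in limma) and Bad 0.20 ± 0.08 (adjusted p = 0.126 in limma). The median over the 9 was -0.04. None of the 4 tested anti-apoptotic relatives passed, with Mcl1 at 0.02 and Bcl2l1 at -0.09.

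Tab2, an adaptor that binds ubiquitin chains in the signalling of IAPs, was the gene that fell. Its means were 6.94 ± 0.24 in wild-type and 6.59 ± 0.17 in Xiap-/- mice housed apart, and 7.03 ± 0.05 in wild-type and 6.85 ± 0.16 in Xiap-/- co-housed mice (SD). Tab2 fell by 0.27 ± 0.07 (adjusted p = 0.0476 in limma) and was below the wild-type mean of its housing in 8 of 9 Xiap-/- libraries. Over 29 alternatives the adjusted p ranged from 0.00824 to 0.260, and the call was lost in 21, among these 15 of the 20 that left out 1 library. Of the 13 tested genes of this ubiquitin signalling list, 11 had an average difference below 0, and only Tab2 passed. Their median was -0.07, beside -0.0016 over all tested genes, and Rbck1 was at -0.15. All 13 were measured in the same libraries, so their signs are not separate observations.

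The remaining lists held no gene that passed. Among the 9 genes of cytochrome c and the effector caspases, with a median of 0.06, Casp6 had a difference of 0.27 ± 0.08 (adjusted p = 0.0623 in limma) and Bcap31 one of 0.15. Among 5 antagonists and XIAP-binding genes, with a median of 0.12, Commd1 had 0.23 ± 0.07 (adjusted p = 0.0744 in limma) and Aifm1, the mitochondrial apoptosis-inducing factor, 0.16. The 5 further IAP genes had a median of -0.05, with Birc5, which acts in cell division, at -0.05 and Naip5, a sensor of bacterial flagellin, at -0.02. Naip5 has near-identical relatives among which reads can be split. The 6 death receptor genes had a median of -0.01, with the receptor gene Tnfrsf1a at 0.02 and its adaptor Tradd at 0.00. Casp6 passed in 5 of its 29 alternatives, Commd1 in 4, and Bak1 of the BCL2 family in 3, each of them with array quality weights, with the replicate block and without wild-type housed apart replicate 5, while Bad passed in 2, with the block and without that library. Without that library the adjusted p of Casp6, Commd1 and Bak1 in limma was 0.0103, 0.0143 and 0.00515.

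**Figure D4:**
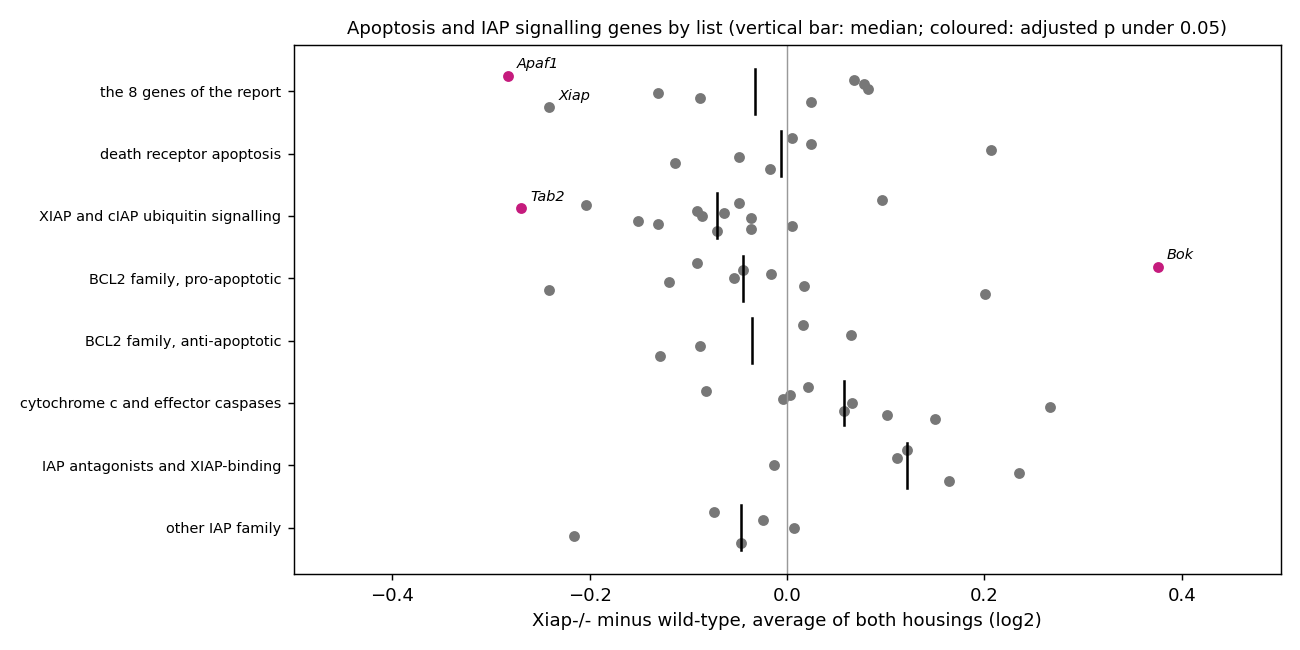
Average Xiap-/- minus wild-type difference (log2, x axis) of each tested gene in the 7 pathway lists and of the 8 genes (rows), with a vertical bar at each median and colour for an adjusted p under 0.05. Bok at 0.38, Tab2 at -0.27 and Apaf1 at -0.28 are the coloured points, and the medians lie between -0.07 and 0.12.

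The 3 genes whose levels followed Xiap most closely over the 20 libraries, of 9520 compared, were Tpcn1, Mgam and Tep1. Their Pearson correlations with Xiap were 0.881, 0.850 and 0.817, and Spearman's rho was 0.860, 0.859 and 0.795. Without the 2 libraries farthest from the median in Xiap the Pearson values were 0.810, 0.758 and 0.833, and after removing group means they were 0.785, 0.781 and 0.817. They are the highest of many, all share the same libraries and depth, and are given as a description. Tpcn1 encodes an ion channel of endosomes and lysosomes, Mgam the brush border enzyme maltase-glucoamylase, and Tep1 a protein associated with telomerase.

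The tested genes beside Xiap on the X chromosome did not pass in any comparison. Stag2, which encodes a cohesin subunit 39.7 kb away, differed by -0.02 ± 0.09 between genotypes housed apart and by -0.04 ± 0.06 on average. Thoc2, 139.0 kb away on the other side, which acts in mRNA export, differed by 0.08 ± 0.12 housed apart and by -0.22 ± 0.12 co-housed, and its average difference was -0.07 ± 0.08.

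Of the tissue, the labels give crypts but the text on extraction names liver. All 7 epithelial and all 6 Paneth cell markers reached the minimum mean, while 1 of 6 hepatocyte markers did, Ttr. This gene rose in Xiap-/- mice by 0.42 housed apart and by 0.26 on average. With a mean of 4.11 it was also the highest of the 5 hepatocyte markers in the table, so it weighs most in their sum. Summed hepatocyte markers lay between 4.34 and 4.79 in wild-type and 4.79 and 4.97 in Xiap-/- mice housed apart, and between 4.45 and 4.73 in wild-type and 4.55 and 4.80 in Xiap-/- co-housed mice. Their part in the results above was not tested. No other marker of the 11 lists passed. No library was a copy of another, with a smallest root mean square difference of 0.155 between any 2. Library depths are unknown, since the values used here hold no counts.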

How the data were processed

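The authors deposited normalized log2 values per gene and library, between -3.88 and 16.30. The build was GRCm38.p6 and the tool named is DESeq2 1.18.1, per the submitters' processing notes. The aligner, the counter, the annotation and the transformation are not given in the sources used here. Whether the transformation shrinks differences of low genes was not tested.

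In R 4.3.3, limma 3.58.1 (trend and robust) was fitted to the 4 groups over the 9521 genes with a mean of at least 3.322, log2 of 10, and p-values were adjusted by Benjamini-Hochberg over all of them, with a threshold of 0.05. The fit was tested on simulated data. Xiap levels were also compared by exact permutation. The 8 genes, the pathway lists and the markers were chosen with earlier results of these data known. All 8 genes were named, with every list gene that passed, the 2 genes of highest mean in each list, the 3 genes closest to Xiap in Pearson correlation and the nearest tested neighbours of Xiap. Gene positions are from GENCODE M21, in which 97.8% of tested symbols were found, and 24 names in the table are dates. RefSeq promoters were found for 7 of the 8 genes.

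Libraries were grouped by their titles. The alternatives changed the filter, the groups fitted, the moderation, library weights, centring, depth, the replicate block and each library in turn. Depth per library is unknown, so no counting intervals are given.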

Additional observations from a re-analysis of the deposited data

Results flagged for a closer look

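One level stood apart from its group among the 8 genes. Casp9 in wild-type co-housed replicate 4 was 4.16, while the nearest of the other 4 libraries of that group was at 4.41, and this gap was 0.714 of the whole range of the group. Chance marks about 1 in 20 groups by this criterion, and 32 groups were examined, of which 1 was marked.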

How the results depend on the processing

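Under array quality weights and with the replicate block, Xiap also passed limma housed apart (1 gene each; -0.47, adjusted p = 0.00742, and -0.44, adjusted p = 0.00326), and the average genotype comparison then called 2 genes, Xiap and Apaf1. With the depth stand-in as covariate it called 0, with Apaf1 at -0.26 (adjusted p = 0.163). In co-housed mice 1 gene, Apaf1, passed with only the compared groups fitted (-0.37, adjusted p = 0.0144) and with the weights (adjusted p = 0.0110). Leaving out 1 library at a time gave 0 to 2 genes on average (0 without Xiap-/- housed apart replicate 4, and 2 without wild-type housed apart replicate 5 or wild-type co-housed replicate 5) and 0 to 1 housed apart (Xiap, without wild-type housed apart replicate 5 or Xiap-/- co-housed replicate 5). The Xiap difference housed apart was -0.43 by limma (adjusted p = 0.0599) and -0.42 as an exact paired permutation over 4 pairs (p = 0.125, the smallest possible). Co-housed it ran from -0.13 to 0.03 when 1 library was left out, and the sign turned without Xiap-/- co-housed replicate 5. The cause of these changes was not tested.

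Whether replicate numbers pair libraries is not given by the titles and was not settled here. Same-numbered deviations correlated at a median of 0.014 over 27 pairs (-0.416 to 0.363), and 6 of 20 libraries correlated best with their own number. With the replicate block the average genotype comparison called 582 genes in all, beside 196 without it. The same count was 791 with the weights, 6 with the depth covariate, 98 without the libraries highest and lowest in the depth stand-in (chosen after seeing the data), and 957 without wild-type housed apart replicate 5, 36 without Xiap-/- co-housed replicate 5 and 42 without Xiap-/- housed apart replicate 4. Housed apart, the 43 genes became 385, 3, 25, 697, 38 and 11 in those settings and 350 with the block.

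Of 1649 alternatives of the 56 differences of the 8 genes, 87 turned the sign of a difference of at most 0.08 that had not passed. The alternatives for list genes were chosen after seeing the data.
With array quality weights the turned values were Htra2 -0.053 for genotype housed apart, Diablo 0.042 for housing in wild-type mice, Tradd -0.021 for genotype on average and Birc2 -0.012, Birc3 -0.014, Diablo 0.0057 and Casp9 -0.017 for housing on average. With median centring the turned values were Birc2 -0.004 and Birc3 -0.005 for housing on average. With quantile normalization the turned values were Birc2 -0.0056, Birc3 -0.0048 and Htra2 -0.0026 for housing on average. With the depth covariate the turned values were Birc2 0.079 for genotype housed apart, Birc2 -0.039 and Htra2 -0.0042 for housing in Xiap-/- mice, Birc5 0.003 and Mcl1 -0.011 for genotype on average, Birc2 -0.033 and Htra2 -0.024 for housing on average and Birc2 -0.012 for the difference of differences. With the replicate block the turned values were Diablo 0.016 and Casp9 0.066 for housing in wild-type mice, Birc3 -0.013 for housing on average and Casp9 -0.026 for the difference of differences. Without the libraries highest and lowest in the depth stand-in the turned values were Birc2 0.0296 for genotype housed apart, Diablo 0.016 and Casp9 0.066 for housing in wild-type mice, Birc3 -0.011 and Htra2 -0.0014 for housing on average and Casp9 -0.011 for the difference of differences. Ranges over the libraries left out in turn, where the sign turned, are as follows. For housing in wild-type mice they ran, for Casp9, from -0.069 to 0.066, Birc2 -0.0903 to 0.0007 and Diablo -0.062 to 0.051. For genotype housed apart they ran, for Birc2, from -0.0708 to 0.0201, Htra2 -0.045 to 0.061 and Casp9 -0.0198 to 0.115. For genotype on average they ran, for Tradd, from -0.032 to 0.031, Tnfrsf1a -0.014 to 0.05, Birc2 -0.0057 to 0.063, Mcl1 -0.011 to 0.047 and Naip5 -0.055 to 0.013. For housing on average they ran, for Birc3, from -0.029 to 0.037, Htra2 -0.016 to 0.039, Casp9 -0.016 to 0.052 and Birc2 -0.025 to 0.044. For the difference of differences they ran, for Casp9, from -0.028 to 0.11 and Diablo -0.11 to 0.0079. For genotype co-housed they ran, for Diablo, from -0.0007 to 0.11, Birc3 -0.037 to 0.081 and Xiap -0.13 to 0.029. For housing in Xiap-/- mice they ran, for Birc2, from -0.013 to 0.12. Casp9 had no value with a minimum mean of 5.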
